A study of Mus musculus with 6 samples.

Results

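Mitochondria make only a few of their own proteins. Nearly all of the rest are made in the cytosol as precursors and imported: the TOM complex of the outer membrane takes them in, the SAM complex inserts barrel-shaped proteins into that membrane, small TIM chaperones carry hydrophobic precursors between the membranes, and the TIM22 and TIM23 translocases pass them into the inner membrane or the matrix, where chaperones fold them and proteases clear what fails to fold. A second set of imported proteins copies and transcribes the mitochondrial genome, which encodes respiratory chain subunits and the ribosomal RNAs needed to make them. The transcripts examined here code for these 2 sets and for nuclear factors that regulate them, 46 listed gene symbols in all, taken by function and matched by symbol.

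The levels were measured by RNA sequencing of primary mouse embryonic fibroblasts (MEFs), connective tissue cells grown directly from embryos, to compare cells with and without intact Kansl1, whose product is a scaffold of the NSL complex, which acetylates histones. The WT group held 3 samples with the genotype Kansl1 fl/fl, in which both copies carry recombination sites, and the KO group held 3 samples with Kansl1 fl/fl/CAG-cre, whose Cre recombinase is driven by the broadly active CAG promoter and is switched on by tamoxifen. All 6 samples were of strain C57BL/6 at passage 3, grew per the labels in medium with 10% serum (a higher content stands in the study's general methods), and were treated with tamoxifen at 1 μM for 48 h. Libraries were made from 2 μg RNA of each. Only KO cells carried Cre, so loss of Kansl1 and the presence of Cre cannot be told apart. The study counts the samples of a group as separate mice and as biological replicates, while the labels do not tie samples to embryos. In bulk RNA, fewer cells of a type and less of an RNA per cell cannot be told apart.

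Of the 46 symbols, 45 matched a row among the 26898 genes of the table, and Tomm6 was not analysed here. Transcript levels are given as TPM, which counts reads per length of transcript on a scale that sums to the same total in each sample, so that levels can be set side by side between genes. A gene was tested when the mean of either group reached 1 TPM, which held for 14799 genes and for 44 of the 45 members, all but Ppargc1a. Differences are log2 fold changes of KO over WT from limma on log2(TPM + 1), a scale that understates changes of genes with low levels, and a gene was called at the study's thresholds, a Benjamini-Hochberg adjusted p under 0.005 over all 14799 genes with a log2 fold change beyond 0.5 in either direction. Reads recovered from the TPM values amounted to 22812595 to 24263082 per WT sample and 17655495 to 27718259 per KO sample. Values of single samples are listed for WT 4, 5 and 8 in this order and then for KO 3, 7 and 10. Kansl1 itself was 28.5, 26.7 and 24.4 TPM in WT and 13.7, 15.8 and 14.4 TPM in KO, a log2 fold change of -0.82 (limma SE 0.11, adjusted p = 0.000859), so transcript counted over all exons remained at 55.1% of the WT mean. The labels do not say which exons the recombination sites flank, so this value does not give the level of intact transcript. The 10 fibroblast markers summed to 10277 to 14857 TPM in WT and 11006 to 14443 TPM in KO with overlapping groups, whereas 10 macrophage markers summed to 41.2 to 50.6 TPM in WT and 92.3 to 183 TPM in KO. All 9 macrophage markers that could be tested lay higher in every KO sample than in any WT sample, and the defining marker Ptprc was at 0.0872 to 0.0921 TPM in WT and 0.0902 to 0.257 TPM in KO. Of these 9, limma called 2 higher at an adjusted p under 0.005 and all 9 at one under 0.05 (beside 4.69% of all genes). Epithelial markers also summed higher in each KO sample (65.5 to 72.2 TPM in WT, 80.7 to 95.3 TPM in KO), while the sums of endothelial markers (2.23 to 5.57 and 3.13 to 4.70 TPM, of which Emcn gave 3.70 TPM in WT 4 and Kdr 0.745 to 1.52 TPM in WT and 1.72 to 2.10 TPM in KO) and muscle markers (81.4 to 108 and 71.0 to 88.2 TPM) overlapped. The part of these differences in the results on mitochondrial genes was not tested.

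KO MEFs had lower transcripts for a small set of members, spread over outer membrane import, the inner membrane translocases and mitochondrial transcription. Among the 44 tested members, 7 fell: Timm22, Polrmt, Mtx1, Timm21, Samm50, Tomm22 and Timm50. That is 15.9% of the members, where 9.03% of all tested genes were lower in KO MEFs. No member rose, where 1.64% of all tested genes did. At an unadjusted limma p under 0.05, 2 members were higher (Timm8b and Hspe1), and voom on recovered reads called 0 higher (beside 2.93% of all genes). With the adjusted p threshold loosened to 0.05, 4 further members counted as lower (Tfb1m, Tfam, Tfb2m and Timm44), which made 11 of 44 or 25% beside 16.6% of all tested genes, and 0 members counted as higher beside 4.69%. Voom, at the stricter threshold, called the same 11 lower, beside 14.5% of all genes. At an adjusted p under 0.05 with a log2 fold change inside 0.5, voom listed 6 further members as lower (Gabpa, Mtx2, Timm10, Tomm40, Tomm7 and Trap1) and 3 as higher (Hspe1, Polg and Timm8b), where limma listed Tomm7 and Timm8b. Tomm40l also passed the looser threshold by voom (log2 fold change -0.57, voom adjusted p = 0.0399) but not by limma (adjusted p = 0.124).

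Over all 44 tested members the difference was small. Their median log2 fold change was -0.17, with a range from -1.03 (Timm22) to 0.41 (Timm8b), beside a median of -0.07 over all tested genes (-0.11 for the members without KO 3 and -0.08 with median-of-ratios scaling, beside -0.0021 and 0.0082 for all genes), and 70.5% of the members had a negative fold change beside 57.4% of all genes. In 14 members, or 31.8%, each KO sample lay below each WT sample, which is close to the 29.9% seen among all genes, and in 2 members each KO sample lay above each WT sample, beside 13.3% of all genes. The count of 7 depended on single samples, as did the count over all genes. It was 3 without WT 4, 2 without WT 5, 5 without WT 8, 2 without KO 3, 4 without KO 7 and 2 without KO 10, and Polrmt and Timm22 passed in each of these 6 fits. Over all tested genes the share lower in these fits was 5.6%, 4.16%, 5.71%, 4.39%, 6.34% and 5.31%, and that of the members was 6.82%, 4.55%, 11.4%, 4.55%, 9.09% and 4.55%, so without WT 5, KO 3 or KO 10 the members were close to all genes. Mtx1 passed only without WT 8 (adjusted p = 0.00333, at most 0.0106 in the others), as did Timm50 (0.00497, at most 0.019). Timm21 passed without WT 4 (0.0048) and without KO 7 (0.0029), and Tomm22 without WT 8 (0.00405) and without KO 7 (0.00491). Samm50 passed in none of them, with adjusted p between 0.00543 and 0.011.

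**Figure D1:**
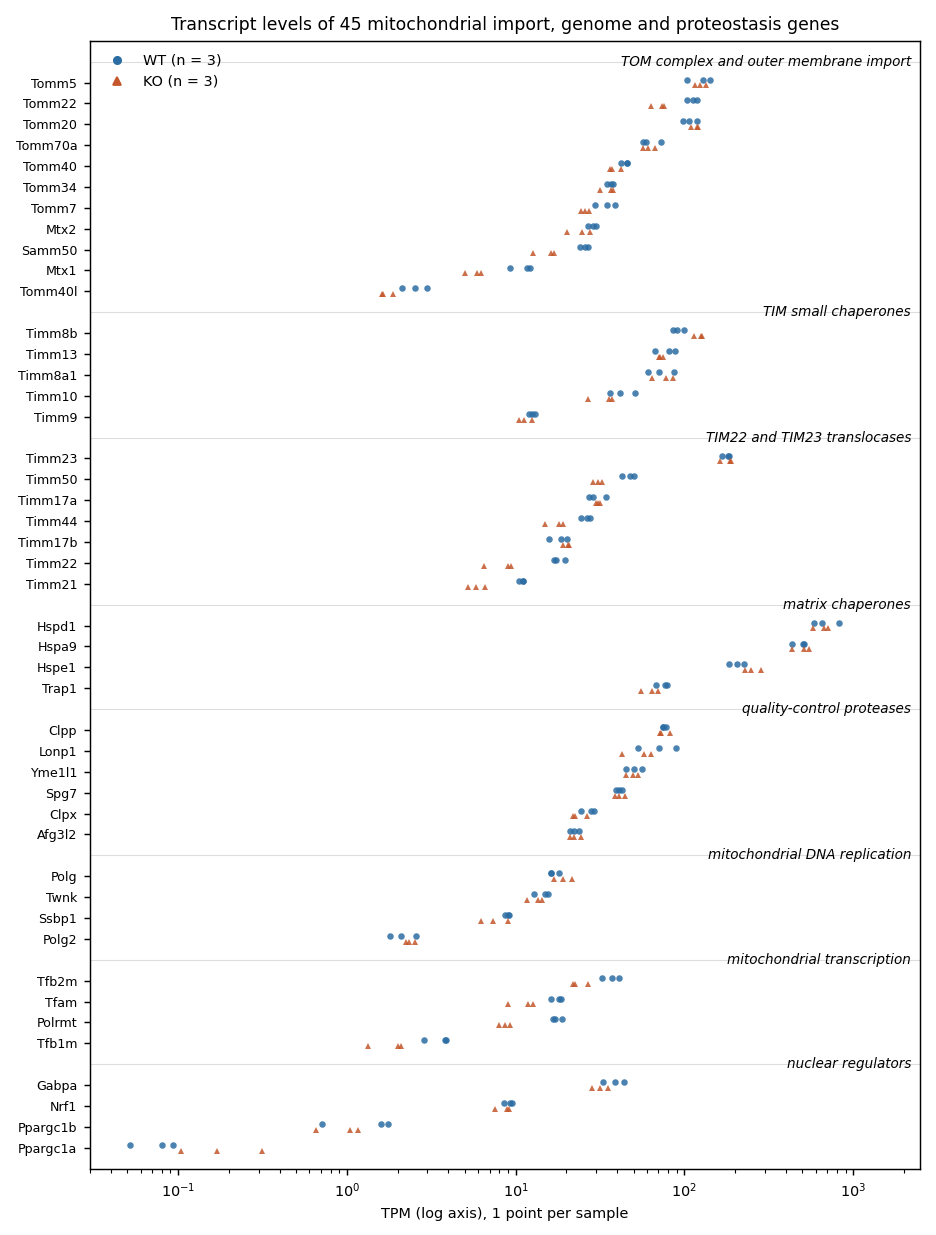
Level of each of the 45 members in every sample, in TPM on a log axis, with members sorted by role and 1 point per sample (blue circles WT, orange triangles KO, 3 samples each). Levels span from under 1 TPM for Ppargc1a to 823 TPM for Hspd1 in WT 4, and the groups stand clear of each other for Polrmt, Timm22, Timm21, Samm50 and Mtx1 while they overlap for most chaperones and proteases.

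**Figure D2:**
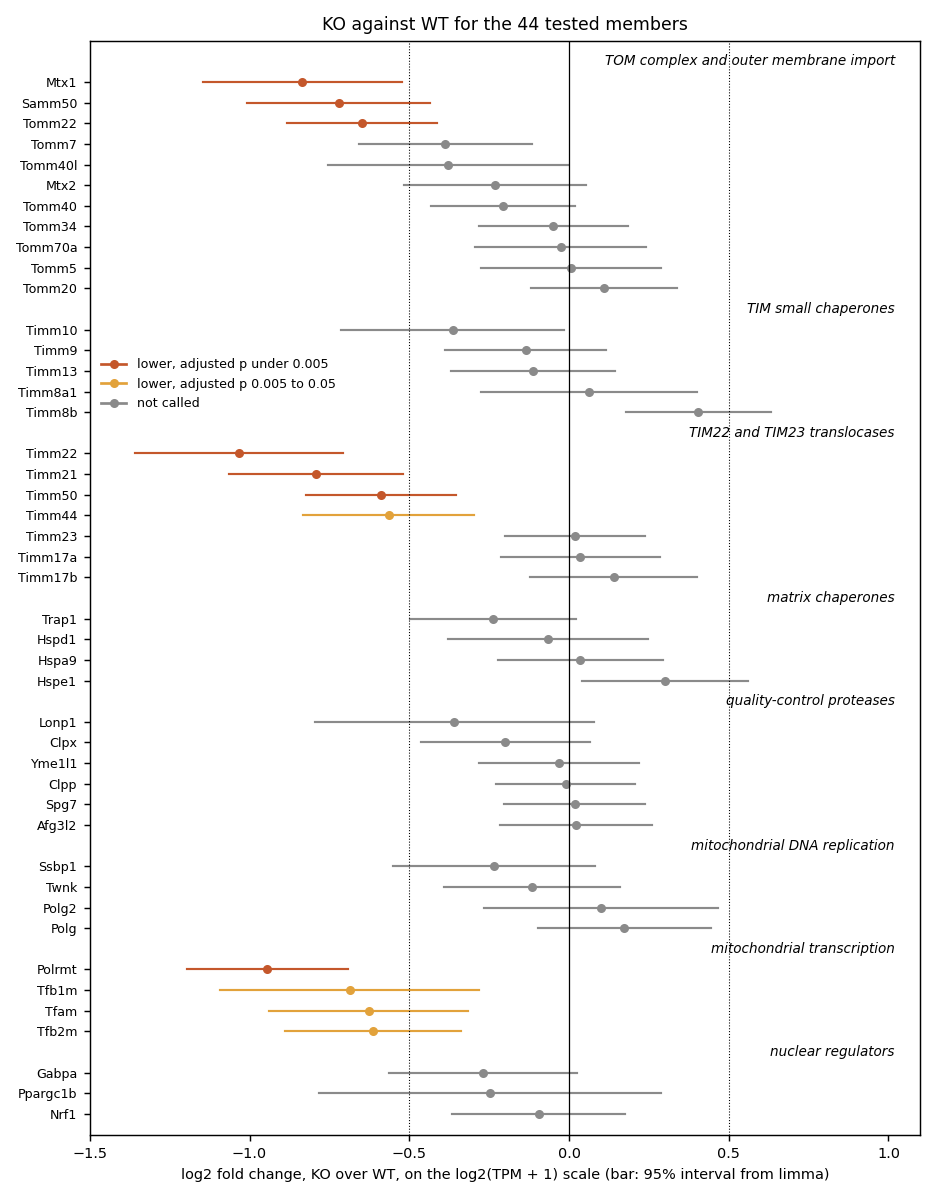
Difference between KO and WT as a log2 fold change, with its 95% interval from limma for the 44 tested members, sorted by role, with dotted lines at the fold change threshold of 0.5 on either side. The 7 called members are in dark orange, the 4 that pass only at an adjusted p under 0.05 in light orange, and the grey members include Tomm7 and Timm8b, whose fold changes lie inside the dotted lines.

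In the group of mitochondrial transcription genes, 1 of 4 members fell at the stricter threshold (beside 9.03% of all tested genes) and all 4 were lower at the looser one (beside 16.6%). Polrmt (ENSMUSG00000020329.12, mm10 chromosome 10 from 79736123 to 79746581, minus strand) encodes the RNA polymerase that transcribes the mitochondrial genome. It measured 16.7, 18.9 and 17.1 TPM in WT and 8.01, 9.32 and 8.61 TPM in KO. The KO samples lay close together and well below all WT samples. The KO mean of 8.65 ± 0.654 TPM was 49.2% of the WT mean of 17.6 ± 1.16 TPM (SD, n = 3), and the transcript fell with a log2 fold change of -0.94 (SE 0.11, limma adjusted p = 0.000515, range over the alternatives 9.73e-07 to 0.00429).

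The 3 other genes of this group passed the looser threshold and not the stricter one. Tfam, whose product packages mitochondrial DNA and opens the way for the polymerase at its promoters, measured 18.2, 18.6 and 16.3 TPM in WT and 8.98, 12.7 and 11.9 TPM in KO (log2 fold change -0.63, SE 0.14, limma adjusted p = 0.00909). Tfb2m, the factor that melts the promoter together with the polymerase, measured 40.9, 37.0 and 32.6 TPM in WT and 22.6, 26.7 and 22.0 TPM in KO (log2 fold change -0.61, SE 0.12, limma adjusted p = 0.00543). Each KO sample lay below each WT sample for both genes, as it did for 29.9% of all tested genes. Without KO 3, the log2 fold change of Tfam was -0.49, inside the fold change threshold. Tfb1m, the paralog of Tfb2m that methylates the small mitochondrial ribosomal RNA, had the lowest level of the group, 3.86, 3.82 and 2.86 TPM in WT and 1.33, 2.09 and 2.02 TPM in KO (log2 fold change -0.69, SE 0.18, limma adjusted p = 0.0196). It rested on 98 to 121 reads in WT and 35 to 73 reads in KO, and 142 bp of its exons overlap Tiam2 on the opposite strand, whose reads cannot be told apart where counting is not stated to use strand. Its adjusted p went above 0.05 without WT 4 (0.0537), without WT 5 (0.0699) and when no low-level filter was applied (0.0666). Between the paralogs, the ratio of Tfb1m to Tfb2m was 0.0951 ± 0.00776 in WT and 0.0764 ± 0.0164 in KO (SD, n = 3), with overlapping groups.

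**Figure D3:**
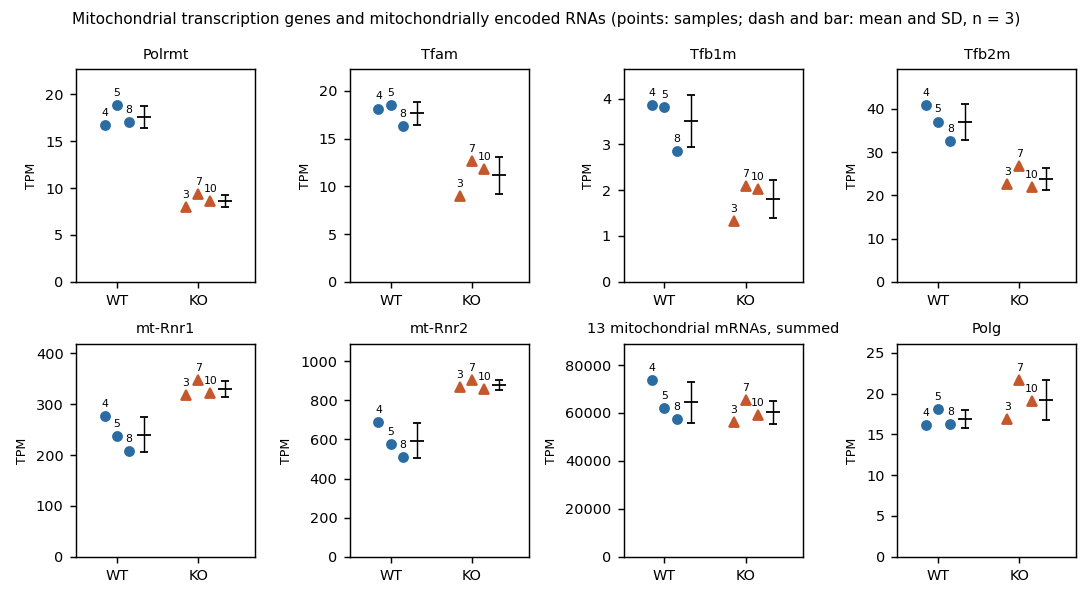
Levels in TPM, on linear axes from 0, of the mitochondrial transcription genes, of Polg for comparison and of the mitochondrially encoded RNAs, with 1 point per sample labelled by its number and the mean with SD (n = 3) beside each group. The 4 transcription genes lie lower in all KO samples, as 29.9% of all tested genes do. The 2 ribosomal RNAs lie higher in all KO samples, as 13.3% of all tested genes do, and the summed mRNAs and Polg overlap.

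The promoters of these 4 genes are shown because Polrmt was called lower and the other 3 passed the looser threshold only, and because the transcription factors NRF1 (from the member Nrf1) and GABP (whose subunit the member Gabpa encodes) are textbook regulators of mitochondrial genes. Each run covers 250 bases before and 50 bases after the transcription start in RefSeq (GRCm38.p6), written 5′ to 3′ on the gene's strand. Capitals mark a match to the NRF1 letters GCGCANGCG or the GABP letters CCGGAAGT on either strand, and Polg is shown as a member with a match whose level was not lower in KO.
Polrmt (chr10:79746532-79746831, minus strand): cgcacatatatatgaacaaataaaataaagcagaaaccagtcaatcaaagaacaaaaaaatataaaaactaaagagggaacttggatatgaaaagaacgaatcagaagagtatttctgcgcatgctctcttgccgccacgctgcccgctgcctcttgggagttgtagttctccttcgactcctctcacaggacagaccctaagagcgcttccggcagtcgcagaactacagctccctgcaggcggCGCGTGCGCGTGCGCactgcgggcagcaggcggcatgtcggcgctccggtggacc
Tfam (chr10:71237995-71238294, minus strand): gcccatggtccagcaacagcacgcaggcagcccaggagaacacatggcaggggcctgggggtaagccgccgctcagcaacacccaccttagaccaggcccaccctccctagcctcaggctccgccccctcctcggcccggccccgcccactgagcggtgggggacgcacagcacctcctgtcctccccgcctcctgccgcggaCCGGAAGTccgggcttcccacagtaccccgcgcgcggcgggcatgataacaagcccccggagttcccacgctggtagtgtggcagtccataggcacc
Tfb2m (chr1:179546227-179546526, minus strand): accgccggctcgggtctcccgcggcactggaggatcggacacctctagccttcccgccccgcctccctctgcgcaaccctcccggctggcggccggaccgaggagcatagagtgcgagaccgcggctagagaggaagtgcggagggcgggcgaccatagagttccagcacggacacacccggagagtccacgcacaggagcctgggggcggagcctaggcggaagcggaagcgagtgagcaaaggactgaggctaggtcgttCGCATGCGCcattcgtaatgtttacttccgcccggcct
Tfb1m (chr17:3557706-3558005, minus strand): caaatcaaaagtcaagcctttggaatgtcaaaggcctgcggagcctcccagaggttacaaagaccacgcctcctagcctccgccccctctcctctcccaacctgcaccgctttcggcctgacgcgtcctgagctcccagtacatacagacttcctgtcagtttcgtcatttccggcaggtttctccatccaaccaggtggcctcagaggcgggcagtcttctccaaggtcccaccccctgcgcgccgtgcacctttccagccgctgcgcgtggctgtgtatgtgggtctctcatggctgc
Polg (chr7:79466224-79466523, minus strand): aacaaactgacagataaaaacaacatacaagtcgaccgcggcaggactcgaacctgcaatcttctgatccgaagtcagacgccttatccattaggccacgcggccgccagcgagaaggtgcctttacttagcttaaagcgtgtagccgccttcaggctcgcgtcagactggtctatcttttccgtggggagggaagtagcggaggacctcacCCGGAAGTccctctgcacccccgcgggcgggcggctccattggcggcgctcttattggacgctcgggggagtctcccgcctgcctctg

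Polrmt held 2 overlapping NRF1 matches across its start, Tfb2m held 1 NRF1 match just after its start, Tfam held 1 GABP match before its start, and Tfb1m held neither. Among the 38 tested members with a promoter in the table, 15 (39.5%) held either motif, beside 23.2% of the 9565 tested genes with a promoter and 10.7% of all 27025 genes with one. By motif, 8 members (21.1%) matched NRF1 and 7 (18.4%) matched GABP, where the shares of tested genes were 15.5% and 9.33%. Of the 10 members lower at the looser threshold that had a promoter, 3 (30%) held a match, and of the 28 other members 12 (42.9%) did. Members with a match that did not fall include Spg7 with 3, Mtx2 with 2, and Tomm20, Timm23 and Timm8b with 1 each. With the shorter cores CGCANGC and CGGAAG, 30 of the 38 members (78.9%) matched, beside 56.6% of tested genes. The table held no entry for Timm21, Tomm7, Tomm40l, Hspa9, Afg3l2 and Ppargc1b.

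The genes for these factors were not called at either threshold. Nrf1 measured 9.30, 9.56 and 8.55 TPM in WT and 7.54, 9.11 and 8.88 TPM in KO (log2 fold change -0.09, 95% interval -0.37 to 0.18). Gabpa, the DNA-binding subunit of GABP, measured 43.6, 39.0 and 32.7 TPM in WT and 28.2, 35.0 and 31.6 TPM in KO (log2 fold change -0.27, 95% interval -0.56 to 0.02), and 397 bp of its exons overlap Atp5j on the opposite strand. Both limma intervals include 0, while the voom interval of Gabpa ran from -0.41 to -0.10 (voom adjusted p = 0.0169). The coactivators Ppargc1a and Ppargc1b had low levels, whereas the related coactivator Pprc1, which is no member, stood at 50.3 to 58.4 TPM in WT and 49.7 to 61.2 TPM in KO (log2 fold change 0.07). Of 8 regulators that are no members, limma called 0 (beside 9.03% lower and 1.64% higher of all genes). Each KO sample lay below each WT sample for Gabpb2 (log2 fold change -0.36, limma adjusted p = 0.122, voom adjusted p = 0.0125). Each lay above for Esrra (0.41, limma adjusted p = 0.0251, voom adjusted p = 0.00325) and Nrip1 (0.19, limma adjusted p = 0.287, voom adjusted p = 0.0339). Ppargc1b stood at 0.711, 1.60 and 1.74 TPM in WT and 0.655, 1.16 and 1.04 TPM in KO (log2 fold change -0.25, 95% interval -0.78 to 0.29). With 1 sample left out, the log2 fold change ran from -0.14 to -0.02 for Nrf1, from -0.38 to -0.18 for Gabpa and from -0.46 to -0.12 for Ppargc1b. Ppargc1a stood at 0.0936, 0.0519 and 0.0800 TPM in WT and 0.104, 0.313 and 0.170 TPM in KO, on 3 to 5 reads per WT sample and 5 to 20 reads per KO sample, below the limit for testing.

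Of the 4 genes that copy mitochondrial DNA, limma called 0 (beside 9.03% lower and 1.64% higher of all genes), with 0 at an unadjusted p under 0.05 and 0 called by voom (beside 14.5% and 2.93%). A count of 0 of 4 is near these shares, and whether they differ from the transcription genes as a group was not tested. Polg, the catalytic subunit of the mitochondrial DNA polymerase, measured 16.2, 18.1 and 16.3 TPM in WT and 16.9, 21.7 and 19.0 TPM in KO (log2 fold change 0.17, 95% interval -0.10 to 0.44, voom interval 0.05 to 0.36), with 921 bp of exon shared with Fanci on the opposite strand. Its accessory subunit Polg2 (0.10), the helicase Twnk (-0.12) and the single-strand binding protein Ssbp1 (-0.23) also had log2 fold changes whose limma intervals included 0, and the voom interval of Ssbp1 ran from -0.43 to -0.03. Within each sample, the ratio of Polrmt to Polg was 1.03, 1.04 and 1.05 in WT and 0.475, 0.429 and 0.452 in KO. The ratio of Tfam to Twnk went from 1.23 ± 0.0411 in WT to 0.841 ± 0.0665 in KO (SD, n = 3). Such ratios of members restate their fold changes within each sample and are given as a description, since the pairs were chosen with the values known.

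None of the mitochondrially encoded mRNAs and rRNAs was called lower, and mitochondrial tRNAs were not analysed here. The 13 mitochondrial mRNAs had log2 fold changes from -0.42 (mt-Atp8, on 14 to 36 reads per sample) to 0.17 (mt-Nd3), and limma called 0 of them (beside 9.03% lower and 1.64% higher of all genes), with 0 at an unadjusted p under 0.05 and 0 by voom (beside 14.5% and 2.93%), and nothing is read from so few genes at these shares. Summed, they took 73884, 61895 and 57328 TPM in WT and 56130, 65418 and 59332 TPM in KO, so the groups overlapped. Of the 13, 10 had a negative fold change and the median was -0.15, and mt-Nd2 was the only one with each KO sample below each WT sample, as 29.9% of all genes had (79.4% of the WT mean, log2 fold change -0.32, limma adjusted p = 0.131, voom adjusted p = 0.0408). The large ribosomal RNA mt-Rnr2 lay higher in KO, at 689, 576 and 512 TPM in WT and 869, 905 and 855 TPM in KO (log2 fold change 0.58, SE 0.12, limma adjusted p = 0.0065), and the small one, mt-Rnr1, went from 240.5 ± 34.5 to 330 ± 16.3 TPM (SD, n = 3, log2 fold change 0.46, limma adjusted p = 0.0166). Neither passed the stricter threshold, while mt-Rnr2 was called by voom. The ratio of ribosomal RNA to mRNA of mitochondrial origin was 0.0129 ± 0.000318 in WT and 0.0201 ± 0.00101 in KO (SD, n = 3) and was apart between the groups. How ribosomal RNA was removed before sequencing was not given in the sources used here.

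Along the import route, lower transcripts stood beside others that overlapped between the groups within the same complexes. Of the 11 tested members of the outer membrane, 3 fell (27.3%, beside 9.03% of all tested genes). Tomm22 (ENSMUSG00000022427.4, chromosome 15 from 79670861 to 79673400, plus strand) encodes the central receptor that holds the TOM complex together. It measured 118, 113 and 104 TPM in WT and 63.6, 75.5 and 73.7 TPM in KO, with a log2 fold change of -0.65 (SE 0.10, limma adjusted p = 0.00202). Every KO sample lay below every WT sample by a wide margin. Tomm20, the receptor for presequences, measured 118, 106 and 98.3 TPM in WT and 109, 121 and 118 TPM in KO (log2 fold change 0.11, 95% interval -0.12 to 0.34). The ratio of Tomm22 to Tomm20 was accordingly 1.04 ± 0.0339 in WT and 0.612 ± 0.0233 in KO (SD, n = 3). The carrier receptor Tomm70a (-0.03), the small subunit Tomm5 (0.01) and the cytosolic partner Tomm34 (-0.05) had log2 fold changes near 0.

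The channel gene Tomm40 and its paralog Tomm40l differed widely in level but neither was called at the stricter threshold by limma or voom. Tomm40 measured 45.4, 45.8 and 42.4 TPM in WT and 36.3, 42.1 and 37.2 TPM in KO (log2 fold change -0.21, 95% interval -0.43 to 0.02, limma adjusted p = 0.162). Tomm40l measured 2.11, 2.98 and 2.53 TPM in WT and 1.87, 1.65 and 1.61 TPM in KO (log2 fold change -0.38, limma adjusted p = 0.124), and 3304 bp of its exons lie opposite Nr1i3. In both, the KO samples lay below the WT samples. Tomm7, a small subunit that steadies the channel, measured 38.8, 34.6 and 29.4 TPM in WT and 24.4, 25.8 and 27.3 TPM in KO. Its limma adjusted p of 0.039 passed the looser threshold while its log2 fold change of -0.39 did not reach 0.5, and the adjusted p stayed under 0.05 only without WT 8 (0.0188) among the fits without 1 sample (0.0816 to 0.11 in the others).

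The machinery that inserts proteins into the outer membrane was lower in part. Samm50 (ENSMUSG00000022437.7, chromosome 15 from 84192241 to 84217267, plus strand), the core of the SAM complex, measured 27.0, 25.6 and 24.0 TPM in WT and 12.6, 16.8 and 16.2 TPM in KO. It fell to 59.5% of the WT mean, with a log2 fold change of -0.72 (SE 0.13, limma adjusted p = 0.00309). Of the exon sequence of Samm50, 111 bp overlap Gm49513 on the same strand. Mtx1 (ENSMUSG00000064068.14, chromosome 3 from 89209081 to 89227088, minus strand), a metaxin that works with Samm50, measured 11.7, 12.1 and 9.30 TPM in WT and 5.87, 5.04 and 6.25 TPM in KO, with a log2 fold change of -0.84 (SE 0.14, limma adjusted p = 0.00231). The groups stood apart for both genes. Of the exon sequence of Mtx1, 759 bp overlap Gm43737 and 318 bp overlap Thbs3, both on the opposite strand, so some of its 153 to 380 reads per sample could belong to these. The second metaxin, Mtx2, measured 28.7, 29.7 and 26.7 TPM in WT and 20.2, 27.6 and 24.9 TPM in KO, with overlapping groups (log2 fold change -0.23, 95% interval -0.52 to 0.05). The ratio of Mtx1 to Mtx2 went from 0.387 ± 0.0337 to 0.242 ± 0.0548 and that of Samm50 to Mtx2 from 0.900 ± 0.0389 to 0.628 ± 0.0217 (SD, n = 3).

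**Figure D4:**
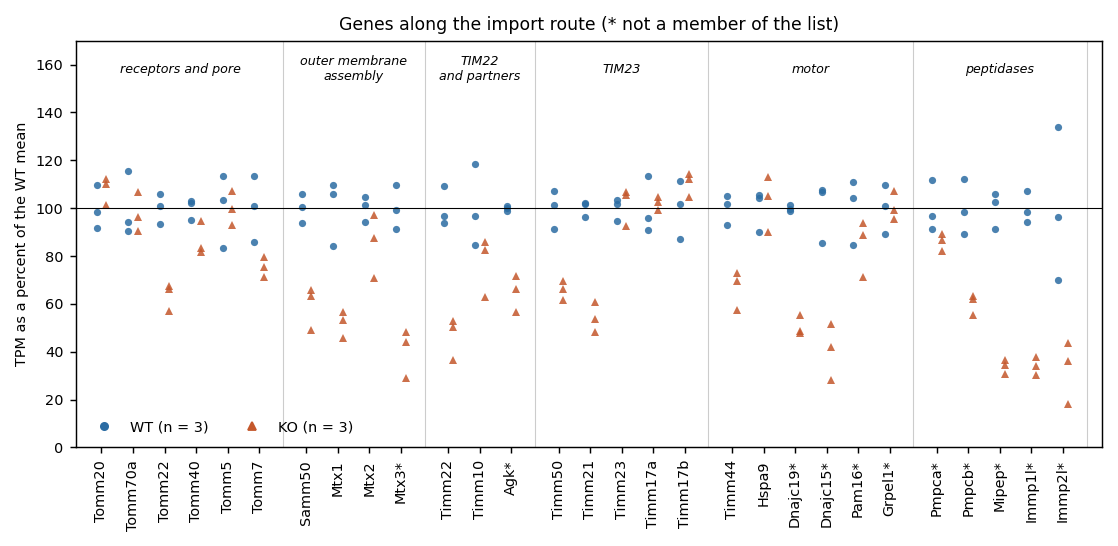
TPM of each sample as a percent of the WT mean of its gene, for genes ordered along the import route from the outer membrane receptors to the peptidases that remove targeting sequences (blue circles WT, orange triangles KO, 3 samples each, asterisk for genes that are not members). Within a step, Tomm20, Timm23 and Hspa9 near 100% stand beside Tomm22, Timm21 and Dnajc19 near 60% or below. No gene of the TIM22 step or the peptidase step is near 100%. Their KO means run from 46.4% (Timm22) to 77.1% (Timm10) of WT in the TIM22 step. In the peptidase step they run from 32.6% (Immp2l) to 86.0% (Pmpca).

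None of the 5 small TIM chaperones was called by limma, which is near the shares of all genes (9.03% lower and 1.64% higher), and at an unadjusted p under 0.05 Timm10 was lower and Timm8b higher. Timm8b, a partner in the chaperone that carries inner membrane proteins across the intermembrane space, measured 100.1, 85.0 and 90.4 TPM in WT and 125, 127 and 114 TPM in KO. This was the highest fold change of the 44 tested members, 0.41 on the log2 scale (SE 0.10, limma adjusted p = 0.0153), and each KO sample lay above each WT sample. Its adjusted p was 0.0803 without WT 5, and 81 bp of its 518 bp of exon lie opposite Nkapd1. Timm13, the partner of the Timm8 proteins, measured 67.0 to 88.1 TPM in WT and 70.5 to 74.4 TPM in KO with overlapping groups. Timm10 measured 51.0, 41.7 and 36.4 TPM in WT and 27.0, 37.0 and 35.6 TPM in KO, also with overlap (log2 fold change -0.36, limma adjusted p = 0.113), and Timm9, which forms its chaperone with Timm10, had a log2 fold change of -0.14.

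The inner membrane translocases held the member with the lowest fold change. Timm22 (ENSMUSG00000020843.15, chromosome 11 from 76406952 to 76416292, plus strand) encodes the channel that inserts carrier proteins into the inner membrane. It measured 19.6, 17.4 and 16.8 TPM in WT and 6.52, 9.44 and 9.01 TPM in KO. On average it fell from 17.9 ± 1.46 to 8.32 ± 1.57 TPM (SD, n = 3), or 46.4% of WT, with a log2 fold change of -1.03 (SE 0.15, limma adjusted p = 0.0011). Its adjusted p was 0.0082 when all 26898 genes were tested, which ended the call, and it passed at the main thresholds under every other tool, filter, scaling and left-out sample tried.

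In the TIM23 translocase, which takes proteins with a presequence, the channel gene overlapped between the groups while 2 of its partners fell and a further partner passed the looser threshold. Over the 7 genes of the TIM22 and TIM23 translocases, 3 were called lower (42.9%, beside 9.03% of all tested genes) and 4 at an adjusted p under 0.05 (57.1%, beside 16.6%). Timm23 measured 183, 180 and 168 TPM in WT and 163, 187 and 189 TPM in KO (log2 fold change 0.02, 95% interval -0.20 to 0.24). Timm50 (ENSMUSG00000003438.17, chromosome 7 from 28305516 to 28312072, minus strand), the receptor that passes presequences from TOM to the channel, measured 47.3, 50.1 and 42.5 TPM in WT and 28.7, 30.9 and 32.4 TPM in KO (log2 fold change -0.59, SE 0.10, limma adjusted p = 0.00319). Timm21 (ENSMUSG00000024645.5, chromosome 18 from 84946191 to 84951524, minus strand), which links the translocase to the TOM complex and to respiratory chain assembly, measured 11.1, 11.0 and 10.4 TPM in WT and 5.21, 6.57 and 5.81 TPM in KO (log2 fold change -0.79, SE 0.12, limma adjusted p = 0.00162). The WT samples of Timm21 differed by less than 1 TPM, and the highest KO sample lay far below them. Timm44, which tethers the import motor to the channel, measured 27.5, 26.6 and 24.3 TPM in WT and 15.0, 19.1 and 18.2 TPM in KO and passed the looser threshold (log2 fold change -0.56, SE 0.12, limma adjusted p = 0.00725), with a log2 fold change of -0.47 without KO 3. Relative to Timm23 in the same sample, Timm22 went from 0.101 to 0.0461, Timm50 from 0.263 to 0.171, Timm21 from 0.0613 to 0.0326 and Timm44 from 0.148 to 0.0968, each apart between the groups. Timm22, Timm50, Timm21 and Timm44 share no exon sequence with another annotated gene.

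The paralogs Timm17a and Timm17b, alternative partners of Timm23, had overlapping groups. Timm17a measured 34.1, 28.8 and 27.2 TPM in WT and 30.8, 31.4 and 29.8 TPM in KO (log2 fold change 0.03, 95% interval -0.21 to 0.28), and the sign of this value turned to -0.03 without WT 8. Timm17b measured 15.8, 20.2 and 18.5 TPM in WT and 19.0, 20.7 and 20.4 TPM in KO (log2 fold change 0.14, 95% interval -0.12 to 0.40). Timm17b and Timm8a1 lie on the X chromosome, and KO 7 was the only sample with Xist (117 TPM, against at most 0.023 TPM in the other 5) and without Ddx3y (0 against 49.6 to 63.2 TPM). KO 7 was the highest KO sample for both genes, with Timm8a1 at 64.1, 85.8 and 77.8 TPM in KO, and 60.9 to 86.8 TPM in WT. The part of this difference in sex in the values was not tested.

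Of the 4 matrix chaperones, 3 (Hspd1, Hspa9 and Hspe1) had the highest mean WT levels of all members, and limma called 0 of the 4 (near the 9.03% lower and 1.64% higher of all genes), with 1 higher at an unadjusted p under 0.05 and 0 called by voom. Hspd1 and Hspe1 encode the 2 parts of the mitochondrial chaperonin, the folding chamber and its lid, and share a start region on opposite strands. Hspd1 measured 823, 655 and 586 TPM in WT and 578, 710 and 671 TPM in KO (log2 fold change -0.07, 95% interval -0.38 to 0.25). Hspe1 measured 225, 206 and 184 TPM in WT and 228, 283 and 248 TPM in KO (log2 fold change 0.30, 95% interval 0.04 to 0.56, limma adjusted p = 0.0819). The adjusted p of Hspe1 was 0.00163 by voom, 0.00155 with median-of-ratios scaling and 0.00233 without the 2 most abundant RNAs, with log2 fold changes of 0.32, 0.39 and 0.32 that stayed inside the threshold of 0.5. Each KO sample of Hspe1 lay above each WT sample, KO 3 by a narrow margin. The ratio of Hspe1 to Hspd1 was 0.300 ± 0.0239 in WT and 0.387 ± 0.0158 in KO (SD, n = 3) and was apart between the groups. The 2 genes share 112 bp of exon and have named pseudogenes, so some reads could have been counted elsewhere. Hspa9, the import motor that Timm44 tethers, had a log2 fold change of 0.04 (95% interval -0.22 to 0.29), and Trap1, a mitochondrial chaperone of the heat shock class, one of -0.24 (95% interval -0.50 to 0.02).

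Of the 6 quality-control proteases, limma called 0 (beside 9.03% lower and 1.64% higher of all tested genes, shares at which 0 of 6 is no result about them), with 0 at an unadjusted p under 0.05 and 0 by voom. The groups overlapped for all 6, while 29.9% of all genes had each KO sample below each WT sample and 13.3% above. Their log2 fold changes ran from -0.36 to 0.02. The lowest was that of Lonp1, the soluble matrix protease that also binds mitochondrial DNA, which varied most among the samples of a group (53.2, 89.0 and 70.2 TPM in WT and 42.9, 63.2 and 57.4 TPM in KO, 95% interval -0.80 to 0.08). The intervals of Clpp (-0.23 to 0.21), the chamber of the Clp protease, and of the membrane proteases Yme1l1 (-0.28 to 0.22), Afg3l2 (-0.22 to 0.26) and Spg7 (-0.20 to 0.24) all lay inside the fold change threshold of 0.5. Clpx, the unfolding subunit of the Clp protease, lay at -0.20 (95% interval -0.46 to 0.06).

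Other genes of the same processes were listed by function, with earlier results of these data known, so their counts are a description beside those of the members. Of 63 such genes 61 could be tested, and 9 fell (14.8%, beside 9.03% of all tested genes) while 0 rose (beside 1.64%). At an unadjusted limma p under 0.05, 26 were lower and 3 higher. The share of all genes at that threshold was not computed, so nothing is read from these counts. Voom called 12 lower (19.7%, beside 14.5% of all genes) and 1 higher (beside 2.93%). Import contributed 6 of the 9, out of 19 tested import genes (31.6%, beside 9.03% of all genes). Immp1l, a peptidase subunit of the inner membrane, had the lowest fold change, from 35.7 ± 2.34 to 12.1 ± 1.34 TPM (SD, n = 3), a log2 fold change of -1.49 (SE 0.11, limma adjusted p = 0.000146). Mipep, a matrix peptidase that trims presequences, measured 6.64, 6.86 and 5.89 TPM in WT and 2.22, 2.36 and 2.00 TPM in KO (log2 fold change -1.23, limma adjusted p = 0.000396). The third metaxin gene, Mtx3, had a log2 fold change of -1.14, the presequence protease subunit Pmpcb one of -0.70, and Dnajc15 and Dnajc19, which drive the Hspa9 motor, -0.96 and -0.87. Dnajc19 shares 178 bp of exon with Fxr1 on the opposite strand, and both it and Mipep have a named pseudogene. The other 3 were the disaggregase Clpb (-1.01), the membrane scaffold Stoml2 (-0.67) and Bcs1l (-0.76), which inserts a subunit of a respiratory complex. Among 20 further genes for mitochondrial DNA upkeep and transcription limma called 0 (beside 9.03% lower and 1.64% higher of all genes). At an adjusted p under 0.05, 7 were lower (35%, beside 16.6% of all tested genes) and 2 higher (beside 4.69%). Voom called 2 lower, or 10%, which is below the 14.5% of all genes, and 1 higher (beside 2.93%). At an unadjusted p under 0.05, 11 were lower and 2 higher, again without a share over all genes. The number of these 61 genes called was 5 without WT 4, without WT 5 or without KO 3, and 6 without each of the other 3 samples, beside 4.16% to 6.34% of all genes called lower in these fits.

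Samples of a group differed in a shared way across the members. KO 7 was the highest KO sample for 37 of the 44 tested members and KO 3 the lowest for 37, while WT 4 was the highest WT sample for 26 and WT 8 the lowest for 33. The same samples differed in the share of TPM taken by Gm23935, a short gene of 57 bp that was the most abundant RNA in every sample. It held 243422 TPM in WT 8 and 256234 TPM in KO 3 but 155090 TPM in WT 4 and 155190 TPM in KO 7. With this RNA and the next most abundant one removed and the rest rescaled, 10 members were lower (22.7%, beside 11.3% of all genes), the 7 called before together with Tfam, Tfb2m and Timm44. KO 3 also had the fewest reads of the 6 samples and KO 7 the most, and the part of read number in the values was not tested.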

How the data were processed

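RNA from 6 MEF samples was sequenced on an Illumina platform after library preparation with a NEBNext kit. Reads were aligned to mm10 with STAR and tested with DESeq2 according to the study, whereas the submitters' processing notes name Bowtie 0.12.2. The counting program, its use of strand and all other versions were not given in the sources used here. The authors deposited TPM for 26898 genes in 6 sample columns, together with a log2 fold change and an adjusted p-value of their own comparison. These authors' columns of log2 values and p-values were not used here.

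TPM times the exon length of a gene in GENCODE M21 was a whole multiple of 1 step in each sample for 100% of 20034 to 20637 values at a tolerance of 0.05, and whole reads were recovered from these steps, between 17655495 and 27718259 per sample. They are reads assigned to genes, not library sizes.

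Samples were grouped by title and genotype into WT 4, 5 and 8 and KO 3, 7 and 10. On log2(TPM + 1) values, limma 3.58.1 (R 4.3.3) was fitted with a trended variance and no covariate, two-sided, to genes whose mean reached 1 TPM in WT or in KO, and p-values were adjusted over all 14799 genes. The fit was tested on simulated data of 14418 genes, where 85% of 200 genes changed by 1 on the log2 scale were recovered and 0 genes were called when none had been changed. Reads were drawn independently for each sample with a set spread, and the changed genes were not of low level. Smaller changes and differences shared across a sample were not simulated, so these rates need not hold for the real data. Alternatives were a pseudocount of 0.1, no filter, a mean of at least 10 TPM, no variance trend, median-of-ratios scaling, removal of the 2 most abundant RNAs, voom on recovered reads, other thresholds and leaving out each sample. Promoters came from RefSeq (GRCm38.p6), matched by symbol. Where a gene had several start sites, a match in any of them counted.

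The rule for members uses gene symbols and no measured value, but members, lists and tests were chosen with earlier results of these data known. By rule, all members were named by role, those called or passing the adjusted p alone with every sample, and regulators and paralog pairs always. Other members given with every sample (Hspe1, Hspd1, Tomm20, Timm23, Mtx2, Timm10, Polg, Lonp1) and the 12 ratios were chosen after their values were seen.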

Additional observations from a re-analysis of the deposited data

How the results depend on the processing

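All members described as lower at either threshold kept a negative log2 fold change under all settings run, and no member was called higher under any. The number of members called changed, all of them lower, was 1 with no filter and 26898 genes tested (2.22% of the members, beside 1.06% of all genes lower), 4 without a variance trend (9.09%, beside 7.76%), 11 with voom (25%, beside 14.5%), 11 at an adjusted p under 0.05 (25%, beside 16.6%) and 1 at a log2 fold change beyond 1 (2.27%, beside 4.05%). Leaving out 1 sample at a time gave 2 to 5 members (4.55% to 11.4%, beside 4.16% to 6.34%). It was 7 with a pseudocount of 0.1 (15.9%, beside 8.64%), 8 of 36 tested at a mean of at least 10 TPM (22.2%, beside 12.1%), 9 with median-of-ratios scaling (20.5%, beside 10.1%) and 10 without the 2 most abundant RNAs (22.7%, beside 11.3%). The member left with no filter was Polrmt, and those left without a variance trend were Mtx1, Polrmt, Timm21 and Timm22. Samm50, Tomm22 and Timm50 were thus not called under either of these settings. The other pathway genes called changed numbered 2 with no filter (beside 1.06% of all genes lower), 4 at a log2 fold change beyond 1 (beside 4.05%) and 5 to 6 with 1 sample left out (beside 4.16% to 6.34%). At an adjusted p under 0.05 they numbered 19, of which 17 were lower (27.9%, beside 16.6% of all genes) and 2 higher (beside 4.69%). The cause of the calls lost was not tested. Timm17a lay between -0.030 and 0.13 with 1 sample left out and was -0.030 without WT 8. The shorter motif cores raised the members with a match from 15 to 30. Median-of-ratios scaling shifted the median over all genes by 0.08 on the log2 scale and left that of the members at -0.08. Depth limits Tfb1m, Polg2, Tomm40l, Ppargc1a and Ppargc1b, each with at most 134 reads in any sample. No paired analysis was run, because the labels give no litter and no replicate number occurs in both groups. Whether samples of the 2 groups share a litter is not known.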
